A study of Mus musculus with 37 samples.

Results

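The genes described here encode 10 subunits of the MLL4 complex or of related complexes, and they were found by symbol among 29955 gene symbols of a table of cerebellar RNA. All 10 symbols were in the table. MLL4 adds methyl groups to lysine 4 of histone H3, and it does so as part of an assembly called COMPASS. Kdm6a, Ncoa6, Paxip1 and 2900092E17Rik encode subunits found with MLL3 and MLL4 only, and 2900092E17Rik is the older symbol of Pagr1a. The other 6, Ash2l, Rbbp5, Wdr5, Dpy30, Men1 and Cxxc1, are treated as the shared core, since they serve the wider family of MLL and SET1 enzymes. Men1 and Cxxc1 are shared less widely than the rest, Men1 being known as a partner of MLL1 and its nearest relative and Cxxc1 as a partner of the SET1 enzymes. The list called the core here therefore reaches beyond the MLL4 complex.

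All mice were of strain C57BL/6. The WT animals carried floxed Mll4 alleles without deletion (Mll4f/f), and the KO animals had lost Mll4 in the brain (Mll4 BSKO). The promoter that drove the recombinase is not given in the sources used here. RNA was sequenced from 3 WT and 3 KO libraries of cerebellum at 1 month of age and from 1 library of each genotype at 4 months. Whether replicate libraries are from different animals is not stated in the labels, so a p-value here reflects spread between libraries that may be technical in part or in whole.

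MLL4 and its relative MLL3 are known for marking enhancers with a single methyl group on lysine 4, while SET1 and other MLL enzymes mark promoters. All of these enzymes need a common platform of WDR5, RBBP5, ASH2L and DPY30 to be active. The subunits restricted to MLL3 and MLL4 add other functions, among them removal of methyl groups from lysine 27 of histone H3 by KDM6A and contacts to nuclear receptors and DNA damage factors.

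Upstream bases are shown for members restricted to MLL3 and MLL4, because the proteins of Paxip1 and 2900092E17Rik bind each other and their genes could be compared letter by letter. Sequences and positions are from RefSeq, build GRCm38.p6, which is not the build of the expression table, and run 5′ to 3′ on the strand of the gene. Capitals mark GCGCATGCGC, the longest self-complementary run found in the upstream windows of both Paxip1 and 2900092E17Rik and a motif that the factor NRF1 is known to bind, or the E-box CACGTG in Kdm6a. Both motifs read the same on either strand and do not overlap each other here.
2900092E17Rik, chr7:127017353-127017541, minus strand: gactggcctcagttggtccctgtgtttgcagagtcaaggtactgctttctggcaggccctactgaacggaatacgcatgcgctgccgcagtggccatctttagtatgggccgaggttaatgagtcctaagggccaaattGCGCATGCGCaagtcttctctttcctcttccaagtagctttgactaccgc
Paxip1, chr5:27791673-27791800, minus strand: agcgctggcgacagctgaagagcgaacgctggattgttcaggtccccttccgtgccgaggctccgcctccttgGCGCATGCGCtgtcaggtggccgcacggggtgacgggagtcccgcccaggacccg
Kdm6a, chrX:18162536-18162565, plus strand: gtcaacaaaggtCACGTGaggcgaggggct
Among 32851 windows of 250 bases upstream of RefSeq starts, GCGCATGCGC occurred in 0.782% and CACGTG in 6.02%. Windows were found for 8 of the 10 members, and GCGCATGCGC was in those of 2900092E17Rik and Paxip1 and in none of the others. The stretch of 2900092E17Rik shown is the whole gap of 189 bases between this gene and its neighbour Prrt2 in that build. GCGCATGCGC was selected because both windows hold it, so its presence in both is not a finding, and the E-box was chosen after the sequences were seen. A match describes letters and not binding.

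Before the results, 2 libraries need to be described, since their values raise questions about their labels. The 4-month WT library also stands apart and is described with the age comparison. Mll2, read here as the symbol of the deleted gene (the annotation lists it for Kmt2d and Kmt2b), measured 18.2, 19.9 and 22.3 FPKM in WT replicates 1 to 3 at 1 month and 12.7 and 13.6 FPKM in KO replicates 1 and 2. FPKM is the number of sequenced fragments scaled by transcript length and by the number of mapped fragments. The library labelled KO replicate 3 had 23.5 FPKM of Mll2, more than any WT library at 1 month. Mll1, a relative that was not deleted, showed the same order. It measured 23.7 FPKM in that library and from 20.6 to 23.6 FPKM in WT, while KO replicates 1 and 2 had 15.2 and 13.8 FPKM. Mll3, Wbp7, Setd1a and Setd1b were also higher there than in KO replicates 1 and 2, but not above all WT libraries. The level of a whole gene, with a pattern shared by undeleted relatives, cannot decide whether the genotype label is right. The library labelled 4-month KO goes against its tissue label. Gabra6, a receptor subunit that marks cerebellar granule neurons, was at 134 FPKM in the 4-month WT library and at 0.118 FPKM in the library labelled 4-month KO, and the Purkinje cell marker Pcp2 was at 132 and 0.544 FPKM. The hindbrain genes Hoxa5, Hoxb2 and Hoxb3 were listed at 0 in that library, while Tbr1, a factor of cortical neurons, was at 31.2 FPKM there, at 0.162 FPKM in the 4-month WT library and between 0.0397 and 0.537 FPKM over the other 7 libraries. The 6 forebrain markers, a list added after the data were seen, summed to 506 FPKM in it and to between 14.1 and 18.1 FPKM elsewhere. The 10 granule neuron markers summed to 36.6 FPKM in it and 835 FPKM in the 4-month WT library, and the Purkinje cell markers to 360 and 1229 FPKM. The difference between genotypes and a difference of brain region cannot be told apart at 4 months.

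Marker genes also moved with genotype at 1 month. The summed level of 10 granule neuron markers ran from 1305 to 1349 FPKM in WT, and was 204 and 200.3 FPKM in KO replicates 1 and 2 and 888 FPKM in the library labelled KO replicate 3. Of 8 Purkinje cell markers 7 were in the table, and their sum ran from 1798 to 2230 FPKM in WT and was 489, 427 and 1268 FPKM in the KO libraries in the same order. The 10 brainstem markers summed to 15.7, 16.7 and 53.4 FPKM in WT replicates 1, 2 and 3 and to 154, 157 and 93.9 FPKM in KO. Microglia markers, 8 of 8 found, summed to between 56.7 and 78.4 FPKM in WT. In KO replicates 1 and 2 they summed to 155 and 146 FPKM, and in the library labelled KO replicate 3 to 199 FPKM, the furthest from WT. None of the granule neuron or Purkinje cell markers was at 0 at 1 month. Oligodendrocyte markers summed to 3215, 3112 and 6155 FPKM in WT replicates 1 to 3 and to 7124, 6673 and 4194 FPKM in KO. Choroid plexus markers summed to 723, 691 and 546 FPKM in WT and to 207, 200 and 1078 FPKM in KO. In bulk tissue fewer cells of a type, less RNA per cell and a difference in the tissue sampled cannot be told apart. This holds for the comparison of genotypes at 1 month too. The part of these shifts in the results below was not tested. Depth relative to WT replicate 1, estimated from the steps between low values, ran from 0.73 to 1.2. It was lowest in WT replicate 3, at 0.73, and in the library labelled KO replicate 3, at 0.77. Replicates 1 and 2 of each genotype were the closest pairs, with a median absolute log2 difference of 0.08 across the 7315 genes averaging 10 FPKM or more, against 0.25 between the library labelled KO replicate 3 and either other KO library. That library was closer to WT replicates 1 and 2, at 0.16 and 0.15, than WT replicate 3 was, at 0.19 and 0.18.

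**Figure D1:**
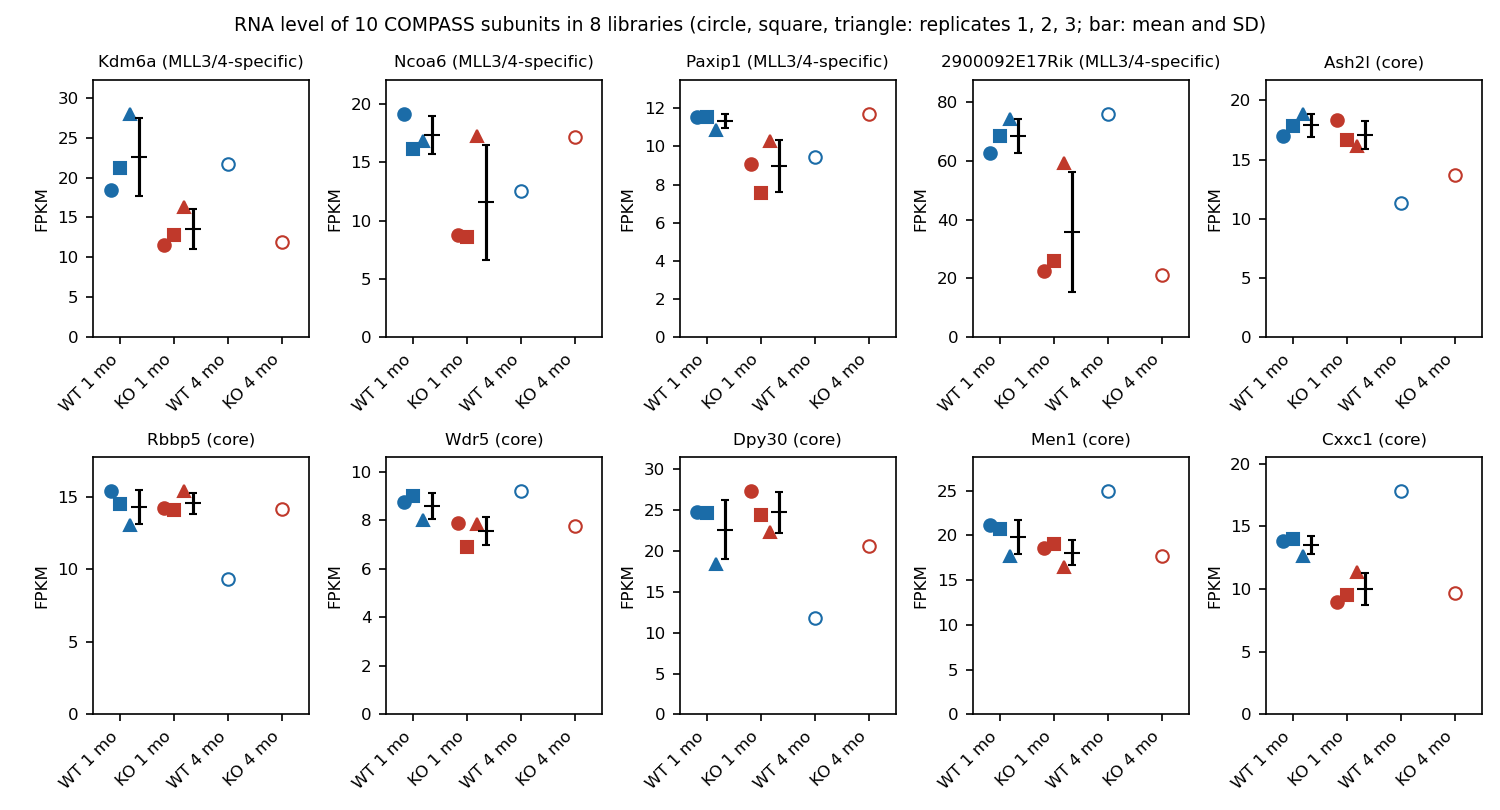
FPKM (vertical axes, from 0) of the 10 subunit genes in 8 libraries by genotype and age (horizontal axes); filled symbols are 1-month replicates, open symbols the single 4-month libraries, and black bars the mean and SD of 3 libraries. For 2900092E17Rik and Ncoa6, KO replicates 1 and 2 lie far below WT and the library labelled KO replicate 3 (triangle) lies near or within WT.

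In normal cerebellum at 1 month the subunits spanned a wide range of RNA levels. 2900092E17Rik was highest, at 68.6 ± 5.75 FPKM (SD, n = 3), above every other member in every WT library. Below it came Dpy30 at 22.6 ± 3.66 FPKM, Kdm6a at 22.6 ± 4.93, Men1 at 19.9 ± 1.9, Ash2l at 17.9 ± 0.969 and Ncoa6 at 17.4 ± 1.61 (SD, n = 3 each), and each of these 5 overlapped its neighbour in that order. Rbbp5 and Cxxc1, at 14.3 ± 1.17 and 13.5 ± 0.713 FPKM, overlapped each other and lay below all of the 5. Paxip1 at 11.3 ± 0.376 FPKM lay below both, and Wdr5 was lowest at 8.59 ± 0.522. The comparison across genes holds per kilobase of transcript, as the authors' FPKM scales it.

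The first comparison asked whether RNA of the 10 subunits differed between KO and WT at 1 month. The 4 subunits restricted to MLL3 and MLL4 had lower means in KO, with a median log2 fold change of -0.65, and the 6 core subunits stood near the WT level, with a median of -0.10. The median over all 14847 genes tested was -0.04. None of the 10 members passed the threshold of 0.05 on the Benjamini-Hochberg adjusted p from limma, computed across all genes, of which 0.0269% passed, 0.0135% higher and 0.0135% lower. Log2 fold changes were negative for 8 of the 10 members, beside 55.2% of all genes. At an unadjusted p under 0.05 in limma 4 members were lower and 0 higher, beside 17.2% of all genes lower and 14.0% higher. The WT and KO libraries did not overlap, with KO lower, in 5 of the 10 members, beside 20.5% of all genes, and 3 of these 5 were among the 4 restricted subunits. With KO higher, 0 members and 15.2% of all genes did not overlap. With the libraries shifted to a common median, 36 of 42 called genes were higher, and no member was among those called.

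2900092E17Rik encodes PA1, a small protein that joins the complex through PAXIP1. WT libraries measured 62.8, 68.6 and 74.3 FPKM, and KO replicates 1 and 2 measured 22.4 and 25.9 FPKM. The library labelled KO replicate 3 was at 59.4 FPKM, just under the lowest WT library. The groups therefore did not overlap, but the 3 KO libraries were far from each other. The log2 fold change of -1.05 (SE 0.35) had an adjusted p of 0.109 in limma and an exact permutation p of 0.1, two-sided, which is the smallest that 3 against 3 libraries allow. Prrt2, the neighbouring gene, which encodes a presynaptic protein of neurons, measured 82.5, 72.4 and 65.1 FPKM in WT libraries against 25.8, 25.1 and 57.8 FPKM in KO libraries. Both genes were lowest in the same libraries at 1 month, and the strand setting is not given, so whether they share reads was not tested.

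Kdm6a encodes UTX, the demethylase of lysine 27 of histone H3. WT levels of 18.4, 21.3 and 28.0 FPKM compared with KO levels of 11.6, 12.8 and 16.4 FPKM, and every KO library was below every WT library. Among the restricted subunits Kdm6a was the furthest below WT in the library labelled KO replicate 3, at -0.42 on the log2 scale relative to the WT mean, beside -0.88 and -0.76 in KO replicates 1 and 2. The log2 fold change was -0.69 (SE 0.19; adjusted p = 0.0875, limma). Kdm6a lies on the X chromosome and escapes X inactivation, so its level can depend on sex. Xist, the RNA of the inactive X, was at or under 0.083 FPKM in all 8 libraries, and the Y-linked gene Ddx3y was between 18.7 and 26.7 FPKM, so the libraries did not differ in these sex markers. Uty, the Y-linked relative of Kdm6a, measured 16.9, 15.5 and 22.0 FPKM in WT libraries against 13.1, 13.6 and 15.3 FPKM in KO libraries (limma, log2 fold change -0.34, adjusted p = 0.18).

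Ncoa6 encodes a coactivator of nuclear receptors. Its level was 19.2, 16.1 and 16.8 FPKM in WT and 8.76 and 8.63 FPKM in KO replicates 1 and 2. In the library labelled KO replicate 3 it was at 17.3 FPKM, inside the WT range. The log2 fold change was -0.61 (SE 0.26; adjusted p = 0.162, limma). Paxip1 encodes PTIP, a protein with BRCT domains that also acts in DNA repair and antibody class switching. Paxip1 measured 11.5, 11.5 and 10.9 FPKM in WT libraries against 9.07, 7.58 and 10.3 FPKM in KO libraries, so that the groups did not overlap by a small margin. The log2 fold change was -0.31 (SE 0.13; adjusted p = 0.155, limma).

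Cxxc1 encodes CFP1, which binds unmethylated CpG and brings the SET1 enzymes to promoters. It was the core member with the largest difference, with 13.8, 14.0 and 12.7 FPKM in WT libraries against 8.96, 9.57 and 11.4 FPKM in KO libraries. All KO libraries were below all WT libraries, and the log2 fold change was -0.41 (SE 0.12; adjusted p = 0.0949, limma). Wdr5, a WD40 protein that reads histone H3 and holds the core together, measured 8.77, 9.01 and 8.01 FPKM in WT libraries against 7.91, 6.91 and 7.85 FPKM in KO libraries. Its groups did not overlap either, but the gap was narrow and the adjusted p was 0.319 in limma.

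The genotypes overlapped in the remaining core members. Ash2l, which holds the active core on its enzyme, stood at a log2 fold change of -0.07, and Rbbp5, a WD40 scaffold of the same core, at 0.02, and for both the direction flipped with the scaling of the libraries. The values for Dpy30 and Men1 were 0.13 and -0.13, and the adjusted p of these 4 genes ran from 0.478 to 0.898 in limma. The 95% intervals of the log2 fold change were -0.31 to 0.18 for Ash2l, -0.23 to 0.28 for Rbbp5, -0.23 to 0.49 for Dpy30 and -0.41 to 0.15 for Men1. Dpy30, a small dimeric subunit that binds ASH2L, measured 24.8, 24.7 and 18.4 FPKM in WT libraries against 27.4, 24.4 and 22.3 FPKM in KO libraries. Men1, which encodes the tumour suppressor menin, measured 21.2, 20.7 and 17.7 FPKM in WT libraries against 18.6, 19.1 and 16.4 FPKM in KO libraries. Ash2l measured 17.0, 17.8 and 18.9 FPKM in WT libraries against 18.4, 16.6 and 16.2 FPKM in KO libraries, and Rbbp5 15.4, 14.5 and 13.1 against 14.2, 14.1 and 15.4 FPKM.

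Without the library labelled KO replicate 3, 5 members were called lower and 0 higher in limma, where 19.9% of all genes were called lower and 14.2% higher. The 5 were all 4 restricted subunits and Cxxc1. In this fit the KO group is replicates 1 and 2 only, which differed by a median absolute log2 difference of 0.08. The spread behind the values that follow may thus be technical in part or in whole. 2900092E17Rik fell by 1.47 on the log2 scale (SE 0.12; adjusted p = 0.00157), Ncoa6 by 0.92 (SE 0.11; adjusted p = 0.00383) and Kdm6a by 0.82 (SE 0.18; adjusted p = 0.0238). Paxip1 and Cxxc1 fell by 0.41 and 0.50 (adjusted p = 0.0363 and 0.0141, limma). The median was -0.87 for the restricted subunits and -0.05 for the core. With the libraries weighted by how closely they followed their group (limma array weights), 6 members were called lower, the same 5 and Wdr5 (adjusted p = 0.03), where 31.0% of all genes were called lower and 54.5% in either direction. Leaving out any other library at 1 month left 0 members called in limma, with between 1 and 3 members at an unadjusted p under 0.05.

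**Figure D2:**
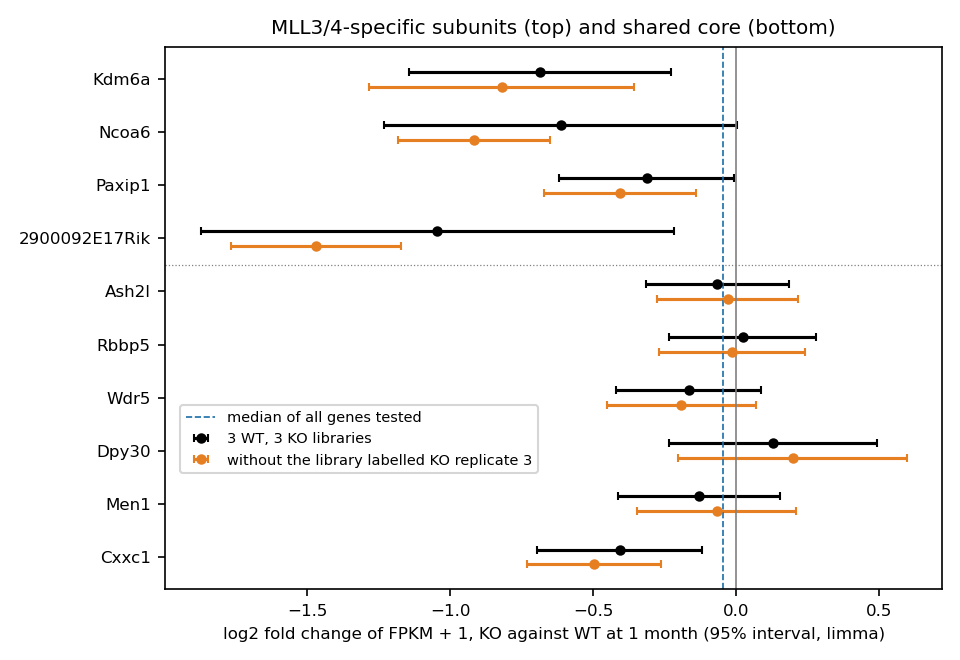
Log2 fold change of FPKM + 1 in KO against WT at 1 month (horizontal axis) with 95% limma intervals for each member (vertical axis), from all 6 libraries (black) and without the library labelled KO replicate 3 (orange); the dashed line is the median of all genes tested. With all 6 libraries the restricted subunits lie left of the line, between -0.31 and -1.05, and 5 of the 6 core members lie within 0.17 of 0 in the fit of all 6 libraries.

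Set beside the marker genes, the members differed in how they varied across the KO libraries. Relative to the WT mean, granule neuron markers had a median log2 level of -2.41 in KO replicate 1, -2.46 in KO replicate 2 and -0.48 in the library labelled KO replicate 3. 2900092E17Rik was at -1.57, -1.37 and -0.20 in the same libraries and Ncoa6 at -0.91, -0.93 and -0.0041, so at 1 month both were lower in KO replicates 1 and 2 than in the library labelled KO replicate 3, as the markers were. Kdm6a at -0.88, -0.76 and -0.42, Paxip1 at -0.29, -0.52 and -0.13 and Cxxc1 at -0.54, -0.45 and -0.22 had the same split. So did the H3K4 methyltransferases, with list medians of -0.70, -0.65 and 0.06. Across 7315 genes KO replicates 1 and 2 were each 0.29 from WT replicate 1, and the library labelled KO replicate 3 was 0.16 from it. The split is therefore not particular to the members, and the share of all genes with it was not computed. In the library labelled 4-month KO, where the granule neuron markers were at -4.81, 2900092E17Rik was at -1.66 but Ncoa6 at -0.01 and Paxip1 at 0.05, near the 1-month WT level. Wdr5 at -0.10, -0.28 and -0.11, Dpy30 at 0.28, 0.12 and -0.01 and Men1 at -0.08, -0.05 and -0.25 did not have the split. Ash2l stood at 0.04, -0.10 and -0.14 and Rbbp5 at -0.01, -0.02 and 0.10 in the 1-month KO libraries, near the WT level in all 3. In the library labelled 4-month KO Ash2l was at -0.36 and Rbbp5 at -0.01. The part of the markers in these differences was not tested.

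**Figure D3:**
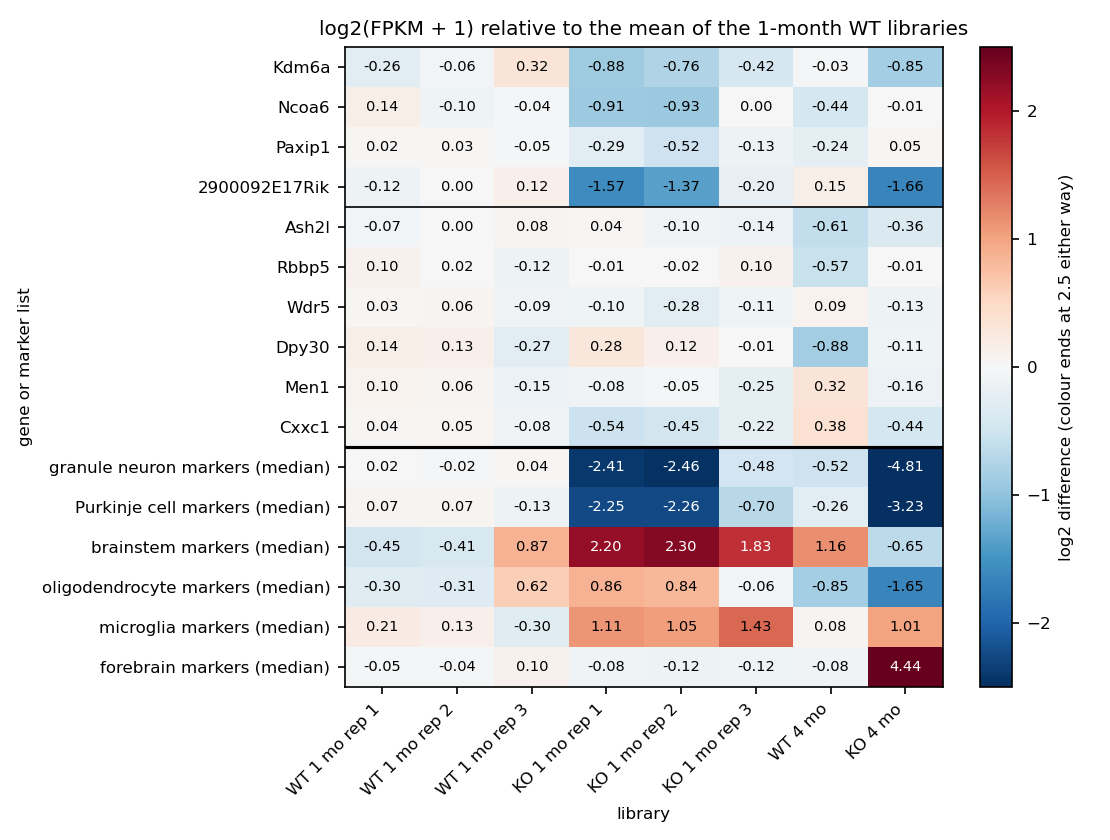
Log2(FPKM + 1) relative to the mean of the 1-month WT libraries, for the 10 members (upper rows) and the medians of 6 marker lists (lower rows) in each of 8 libraries (columns); blue is lower and red is higher, with the value printed in each cell. The library labelled 4-month KO shows -4.81 for granule neuron markers and 4.44 for forebrain markers.

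Over all 8 libraries the genes whose profile was most like that of a restricted subunit were found by the root mean square difference of log2(FPKM + 1), centred for each gene, among 14918 genes. For Kdm6a the nearest were Wfikkn2, at a distance of 0.086, and Dnmt3a, a DNA methyltransferase, at 0.093. Dnmt3a measured 33.2, 36.0 and 57.2 FPKM in WT libraries against 22.8, 26.0 and 31.5 FPKM in KO libraries at 1 month, and like Kdm6a it was highest in WT replicate 3. The nearest to Ncoa6 was Pcgf2, at 0.079, and the nearest to Paxip1 were Sltm and Zbtb6, at 0.061 and 0.065. AK154077 and St6galnac4 were nearest to 2900092E17Rik, at 0.11 each. The distance to the closest other member was 0.25 for Kdm6a (Cxxc1), 0.24 for Ncoa6 (Paxip1), 0.15 for Paxip1 (Wdr5) and 0.40 for 2900092E17Rik (Kdm6a). How these distances rank among all genes is not given here. These distances are a description over 8 libraries and include the library labelled 4-month KO.

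Other genes of lysine 4 methylation gave the setting in which the members stood. None of the genes in these 3 lists passed the adjusted p threshold in limma. All 6 methyltransferases of the MLL and SET1 family had negative log2 fold changes, with a median of -0.40, beside 55.2% of all genes negative, and 2 had an unadjusted p under 0.05, beside 17.2% of all genes lower. Wbp7, read as Kmt2b, measured 14.4, 14.8 and 15.1 FPKM in WT libraries against 7.98, 8.28 and 13.7 FPKM in KO libraries, and was the only methyltransferase of 6 whose groups did not overlap, beside 20.5% of all genes. Mll2 itself had a log2 fold change of -0.31 (adjusted p = 0.393, limma), and Mll1, Mll3, Setd1a and Setd1b of -0.37, -0.48, -0.44 and -0.33. The direction was negative for all 6 under each of 3 other scalings and without the library labelled KO replicate 3.

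Among 6 other subunits of related complexes 5 had negative fold changes, with a median of -0.24, and 2 had an unadjusted p under 0.05, beside 55.2% and 17.2% of all genes. Wdr82, which recruits the SET1 enzymes to RNA polymerase II, measured 49.8, 51.7 and 48.8 FPKM in WT libraries against 29.4, 29.0 and 37.6 FPKM in KO libraries (limma, log2 fold change -0.64, adjusted p = 0.0648). Hcfc2 had a log2 fold change of -0.36, Psip1, a chromatin reader that partners menin, of -0.26, and Bod1l, a SET1 partner, of -0.21. All 8 demethylases had negative fold changes, with a median of -0.34, and 2 had an unadjusted p under 0.05, beside the same 17.2%. Those with the smallest p were Kdm5b at -0.49, Kdm5c at -0.46, Kdm6b at -0.71 and Uty at -0.34, where the KDM5 proteins remove methyl groups from lysine 4 and KDM6B, like UTX, from lysine 27. The groups did not overlap, with KO lower, in 4 of the 8 demethylases and 4 of the 6 other subunits, beside 20.5% of all genes. Kdm5b and Kdm5c were among these, with an adjusted p of 0.0875 and 0.0959 in limma. The restricted subunits had the most negative median of the 5 lists and the core the least, a description without a test.

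**Figure D4:**
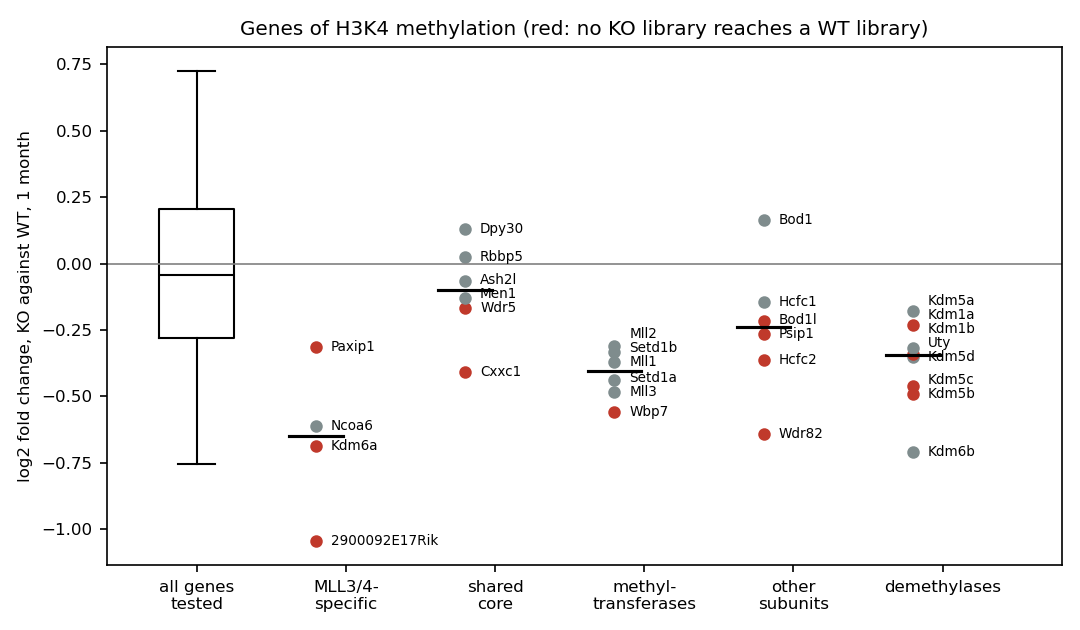
Log2 fold change in KO against WT at 1 month (vertical axis) for genes of 5 lists (horizontal axis), with black lines at list medians and red where every KO library was below every WT library; the box shows the median and quartiles of all genes tested with whiskers at the 5th and 95th percentiles. 2900092E17Rik is the lowest point at -1.05, and Dpy30 is the highest of the 10 members at 0.13.

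At 4 months 1 library of each genotype was compared, without a test, and the library labelled KO carried forebrain and not cerebellar markers. 2900092E17Rik was at 76.1 FPKM in WT and 21.0 FPKM in the library labelled KO, a log2 difference of -1.81 and the only one of the 10 of at least 1 in size, beside 11.2% of all genes at least 1 lower and 9.57% at least 1 higher. Kdm6a was at 21.7 and 11.9 FPKM, Cxxc1 at 17.8 and 9.70 FPKM and Men1 at 25.0 and 17.7 FPKM. The other restricted subunits went the opposite way, Ncoa6 from 12.5 to 17.2 FPKM and Paxip1 from 9.46 to 11.7 FPKM. Dpy30 was at 11.7 and 20.7 FPKM, Rbbp5 at 9.32 and 14.2 FPKM and Ash2l at 11.4 and 13.7 FPKM, with the lower value in WT each time. Wdr5 was at 9.22 and 7.76 FPKM. The median difference of the 10 members was 0.01, that of the 4 restricted subunits -0.27 and that of all genes -0.01.

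Whether the genotype difference itself changed between the ages was tested in limma with 4 groups, where the single 4-month libraries are assumed to vary like those of 1 month. None of the 10 members passed, beside 11.5% of all genes. At an unadjusted p under 0.05 in limma there was 1 member, Rbbp5, in the higher direction, beside 16.2% of all genes, and 0 in the lower, beside 14.2%. Without the library labelled KO replicate 3, Ncoa6 passed, with a difference of 1.34 between the ages (SE 0.19; adjusted p = 0.0115, limma), beside 12.3% of all genes called in that direction and 10.9% in the other, where no member was called. This value rests on 1 library of each genotype at 4 months, and age and brain region cannot be told apart in it.

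The age comparison asked how subunit RNA differs between 4 months and 1 month. The single WT library at 4 months had lower Dpy30, Ash2l and Rbbp5 than any library at 1 month, at 11.7, 11.4 and 9.32 FPKM. Cxxc1, Men1, Wdr5 and 2900092E17Rik were higher than in any library at 1 month, at 17.8, 25.0, 9.22 and 76.1 FPKM. The share of all genes outside the 1-month range was not computed. That library differed from the 1-month libraries by a median absolute log2 difference of 0.36 to 0.51. The library labelled 4-month KO was closer to them, at 0.32 to 0.37, although it carried forebrain markers. Mll2 at 46.6 FPKM and Setd1b at 10.6 FPKM were at their highest over the 8 libraries in the 4-month WT library. Why it stands apart was not tested. With all 8 libraries and genotype as a term, 0 of 10 members passed in limma, beside 1.98% of all genes. This fit assumes the same genotype difference at both ages and includes the library labelled 4-month KO, which carried forebrain markers. Brainstem markers summed to 77.8 FPKM in the 4-month WT library and to 15.7, 16.7 and 53.4 FPKM in WT at 1 month. Age and sampled tissue cannot be told apart in these comparisons. At an unadjusted p under 0.05 there were 2 members lower and 0 higher, beside 16.4% and 7.86% of all genes. The 2 were Ash2l, with a log2 difference of -0.45 (SE 0.13; adjusted p = 0.0997), and Dpy30, with -0.56 (SE 0.19; adjusted p = 0.139). Without the library labelled 4-month KO, an alternative added after the data were seen, the 4-month arm is 1 WT library, assumed to vary like the 1-month libraries, and Ash2l passed in limma at -0.61 (SE 0.15; adjusted p = 0.0485), beside 10.3% of all genes called and 6.57% called lower. Dpy30 was at -0.88 (adjusted p = 0.0505) and Rbbp5 at -0.57 (adjusted p = 0.0603) in that fit, and neither passed. In the 4 WT libraries alone, a fit also added after the data were seen and one that sets the single 4-month library against 3 under the same assumption, 0 members passed in limma, beside 0.122% of all genes. At an unadjusted p under 0.05, 4 were lower (Ash2l, Dpy30, Rbbp5 and Ncoa6) and 1 higher (Cxxc1), beside 21.2% and 13.1% of all genes. Among the restricted subunits Kdm6a at 21.7 FPKM was inside its 1-month WT range, and 2900092E17Rik at 76.1 FPKM was just above its own.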

How the data were processed

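The authors deposited 1 table of FPKM values, with 1 column for each of 8 RNA libraries. Column names were matched to the titles, which left 0 columns unmapped. TopHat2 2.1.0, Bowtie 1.1.2, Cuffdiff and build mm9 are named in the submitters' processing notes. Not given in the sources used here are the annotation, the strand setting and how libraries were scaled. The other 29 of 37 samples, chromatin immunoprecipitation and inputs, were not analysed here. A repeated header row was removed. FPKM values are not counts, so absolute depth is unknown.

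Tests used limma 3.58.1 (R 4.3.3) on log2(FPKM + 1), for genes averaging 1 FPKM or more over the libraries compared, with Benjamini-Hochberg adjustment over all of them and a threshold of 0.05. This scale understates the change of low genes. KO and WT at 1 month were compared in 6 libraries, age in 8 with genotype as a term, and the change of the genotype difference with age in a fit of 4 groups. The code was tested on simulated data. Members and lists were chosen with earlier results of these data known. The text names all members, the methyltransferases, up to 4 genes of each other pathway list with the smallest p, and the nearest 2 genes to each restricted subunit, of which 1 is not reported here; markers, sex-linked genes and Prrt2 are named as checks. Alternatives covered pseudocounts, filters, scalings, library weights, the replicate number and each left-out library. Names and upstream sequences came from RefSeq tables of GRCm38.p6.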

Additional observations from a re-analysis of the deposited data

How the results depend on the processing

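The 4 restricted subunits had negative log2 fold changes at 1 month under all 17 alternatives, with a median between -0.87 and -0.53. The core median ran from -0.14 to -0.016, the last under quantile normalization. No member was called except without the library labelled KO replicate 3 (range over left-out libraries 0 to 5) and with array weights (6, beside 54.5% of all genes). Left-out libraries gave 0 to 1 member for the genotype difference between ages, and leaving out the library labelled 4-month KO gave 1 for age. Ash2l became 0.0054 with libraries shifted to a common median, 0.018 with quantile normalization and 0.012 with all 8 libraries and age. Rbbp5 became -0.0082 when scaled to the total without small RNA symbols and -0.049 with array weights. Without 1 library Rbbp5 ran from -0.036 to 0.075 and Dpy30 from -0.0061 to 0.20. The cause of these changes was not tested.

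Genes called among all, 4 in the comparison as reported, numbered 12 and 10 with pseudocounts of 0.1 and 0.5, 1 without a filter, 13 with a filter at 5 FPKM, 42 with a common median, 8 with quantile normalization, 11 with the total scaling, 9 with a trended robust variance, 8095 with array weights and 0 with all 8 libraries and age (limma; 3937 at an unadjusted p under 0.05). Leaving out 1 library gave 1 to 5037, the last without the library labelled KO replicate 3, and 18 without WT replicate 3. The replicate number as a block gave 0 genes and 0 members in limma, with 4892 genes and 3 members at an unadjusted p under 0.05. Same-numbered libraries deviated together with correlations of 0.17, 0.03 and 0.04 across genes, and KO replicate 2 was closest to WT replicate 3 (0.08). The number was not taken to pair them, but these correlations cannot exclude a batch shared by libraries of the same number. The median of all genes moved by less than 0.1 under each scaling. Without read counts, depth gives no error for a single value.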

Other observations

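Ratios of FPKM within a library do not depend on how the library was scaled. The divisor here, Mll2, is read as the deleted gene, so its own change with genotype moves every ratio. At 1 month it measured 12.7, 13.6 and 23.5 FPKM in KO libraries against 18.2 to 22.3 FPKM in WT. The divisor therefore raises the ratios of KO replicates 1 and 2 and lowers those of replicate 3. 2900092E17Rik relative to Mll2 was 3.46, 3.45 and 3.34 in the WT libraries at 1 month and 1.77, 1.91 and 2.52 in KO, with no overlap at 1 month. In the 4-month WT library this ratio was 1.63, below every KO ratio at 1 month, and in the library labelled 4-month KO 1.27. Mll2 was at 46.6 FPKM in the 4-month WT library, its highest over the 8 libraries, which lowers every ratio there. 2900092E17Rik was itself at its highest there, at 76.1 FPKM. Kdm6a relative to Mll2 was 1.01, 1.07 and 1.26 in WT and 0.918, 0.940 and 0.695 in KO, the lowest being the library labelled KO replicate 3, and at 4 months 0.466 in WT and 0.717 in the library labelled KO. Dpy30 relative to Mll2 was 1.37, 1.24 and 0.826 in WT and 2.16, 1.80 and 0.948 in KO, and these groups overlapped. These ratios were formed after the data were seen and were not tested. The share of all genes whose ratio to Mll2 did not overlap is not given here.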
